A study of Mus musculus with 30 samples.

Results

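The genes described here were 41 receptor tyrosine kinases outside the ErbB family, taken by gene symbol from the count tables of whole aorta and whole kidney. All 41 were found in both tables, which list 41128 genes each, and every one had at least 1 count in each tissue. A gene was tested in a tissue when its counts passed a filter on low values across the groups of that tissue. In aorta 35 of the 41 receptors passed it, among 14796 genes, and in kidney 38 passed, among 15034 genes.

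Receptor tyrosine kinases are single-pass membrane proteins that bind growth factors, matrix or cell-bound ligands outside the cell and phosphorylate tyrosines inside it. Ligand binding usually pairs receptors, and the phosphorylated tails recruit adaptors such as GRB2, SHC1 and PLCG1, which pass the signal to the RAS-MAPK and PI3K pathways. In the arterial wall PDGF receptors are known for the growth and migration of vascular smooth muscle cells (VSMCs), DDR2 for binding fibrillar collagen and AXL for binding the vitamin K-dependent protein GAS6. In the kidney DDR1, MET and FGF receptors are known from the tubular epithelium. The ErbB receptor EGFR, the gene deleted in this study, exchanges signals with several of these receptors.

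The samples were 14 aortae and 16 kidneys of male mice, 30 libraries in all, in a design that crossed genotype with diet. The label gives the strain as C57Bl6J. All mice carried a tamoxifen-inducible Cre recombinase (Cre/ERT2) under the Smmhc (Myh11) promoter, located on the Y chromosome, and all were injected with tamoxifen on 5 days. Wild-type (WT) controls had no loxP sites, and knockout (KO) mice were Egfr flox/flox, so that Egfr was to be lost in smooth muscle only and every other cell kept the gene. High-fat diet (HFD) began 7 days after tamoxifen at 6 weeks of age and lasted 18 weeks, against a standard-fat diet (SFD) in the other groups. The aorta had 3 WT-SFD, 4 WT-HFD, 3 KO-SFD and 4 KO-HFD libraries, and the kidney had 4 in each of the 4 groups. Counts per library summed to 6403699 to 13052870 in aorta and to 16354880 to 28331314 in kidney, and the 41 receptors took 0.180% to 0.292% of them in aorta and 0.114% to 0.165% in kidney. Both are bulk tissues, in which fewer cells of a type and less RNA per cell cannot be told apart.

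Egfr was lower in KO aortae on both diets without being absent. It lies on chromosome 11 (ENSMUSG00000020122, GRCm38, 16752203 to 16918158). Normalised Egfr levels, in FPM (CPM of the TMM-scaled library), were 46.7, 39.5 and 54.3 in WT-SFD aortae against 26.8, 35.5 and 28.0 in KO-SFD aortae. On HFD WT aortae had 65.1, 57.0, 51.2 and 57.0, against 27.5, 40.6, 39.7 and 33.4 FPM in KO aortae. The genotypes did not overlap on either diet. The Egfr difference averaged over both diets was −0.67 on the log2 scale (SE 0.109, adjusted p = 0.0132 by the quasi-likelihood test of edgeR, adjusted after Benjamini and Hochberg over all genes tested). Within each diet it was −0.64 and −0.70, with edgeR adjusted p-values of 0.531 and 0.130. In kidney, where smooth muscle is a small part of the tissue, Egfr ran from 36.9 to 60.8 FPM and the genotypes overlapped.

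Tissue identity was checked against markers. The smooth muscle genes were led by Acta2 at a mean of 6954 FPM in aorta, and the kidney by the proximal tubule gene Kap at 16010 FPM, with Umod at 4490 FPM and Aqp2 at 858 FPM. Tagln and Cnn1 of smooth muscle and Cdh5 of endothelium were listed at 0 in every library of both tissues. No gene of chromosomes 9, X, Y or MT had a count in any of the 30 libraries, and neither did the 526 genes of chromosome 8 that start after position 97565603, against 982 of the 1189 genes before it. Zeros in these regions, where Tagln, Cnn1 and Cdh5 lie, therefore say nothing about a gene. None of the 41 receptors lies there.

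Of the 6 SFD aortae 4 stood apart by adipocyte genes. The summed level of 20 adipocyte markers was 6901, 5371 and 639 FPM in WT-SFD replicates 1, 2 and 3, while KO-SFD replicates 1, 2 and 3 had 4407, 1666 and 599 FPM. The 8 HFD aortae lay between 556 and 786 FPM. All 20 markers had counts, and the most abundant was Plin4 with a mean of 413 FPM. The aortae WT-SFD replicates 1 and 2 and KO-SFD replicate 1 also had the lowest summed smooth muscle level, 10605, 13169 and 11456 FPM, against 15761 FPM or more in all others. Markers of other tissues stood out in single libraries of the same groups. The summed Schwann cell markers were at 217 FPM in WT-SFD replicate 1 and at 104 to 140 FPM in the other 13 aortae, led by Pmp22. The summed cardiac muscle markers, led by Myh6, were at 321 FPM in WT-SFD replicate 2, at 51.4 FPM in KO-SFD replicate 2 and at 4.23 to 18.3 FPM in the others. In WT 3 of 7 Schwann cell markers and 2 of 2 cardiac markers were lower on HFD at an unadjusted p under 0.05, and 0 passed by edgeR. The summed fibroblast markers, led by Dcn and with none at 0, were at 891 and 758 FPM in WT-SFD replicates 1 and 2 and at 765 FPM in KO-SFD replicate 1, against 1063 to 1693 FPM in all other aortae. In WT 2 of 8 fibroblast markers were higher on HFD at an unadjusted p under 0.05, and 0 passed by edgeR. The part of these markers in the receptor differences was not tested. An aorta was called rich in adipocyte transcripts when its mean log2 CPM of these markers exceeded 3.66, the highest value of an HFD aorta. By this rule only SFD aortae could be rich. The aortae rich in adipocyte transcripts were WT-SFD replicates 1 and 2 and KO-SFD replicates 1 and 2. Diet differences named for the aorta, within a genotype or averaged over both, are given with these 4 aortae. They are given again with the adipocyte markers as a covariate or without these aortae. Genotype differences and differences of the diet effect between genotypes are not given singly in these settings. Nor are some receptors listed as passing without WT-SFD replicate 3.

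Receptor levels were set side by side in aorta and kidney. To compare genes with each other, levels were divided by the summed exon length and are given as FPM per kilobase, as mean and SD over the 14 aortae or 16 kidneys. The tissues were sequenced at different sites and normalised apart, so levels are set side by side across them without a test. In aorta 26 receptors exceeded 1 FPM per kilobase, and in kidney 25 did. In 16 receptors every aorta lay above every kidney, in 12 every kidney lay above every aorta, and in 13 the libraries of the tissues overlapped.

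**Figure D1:**
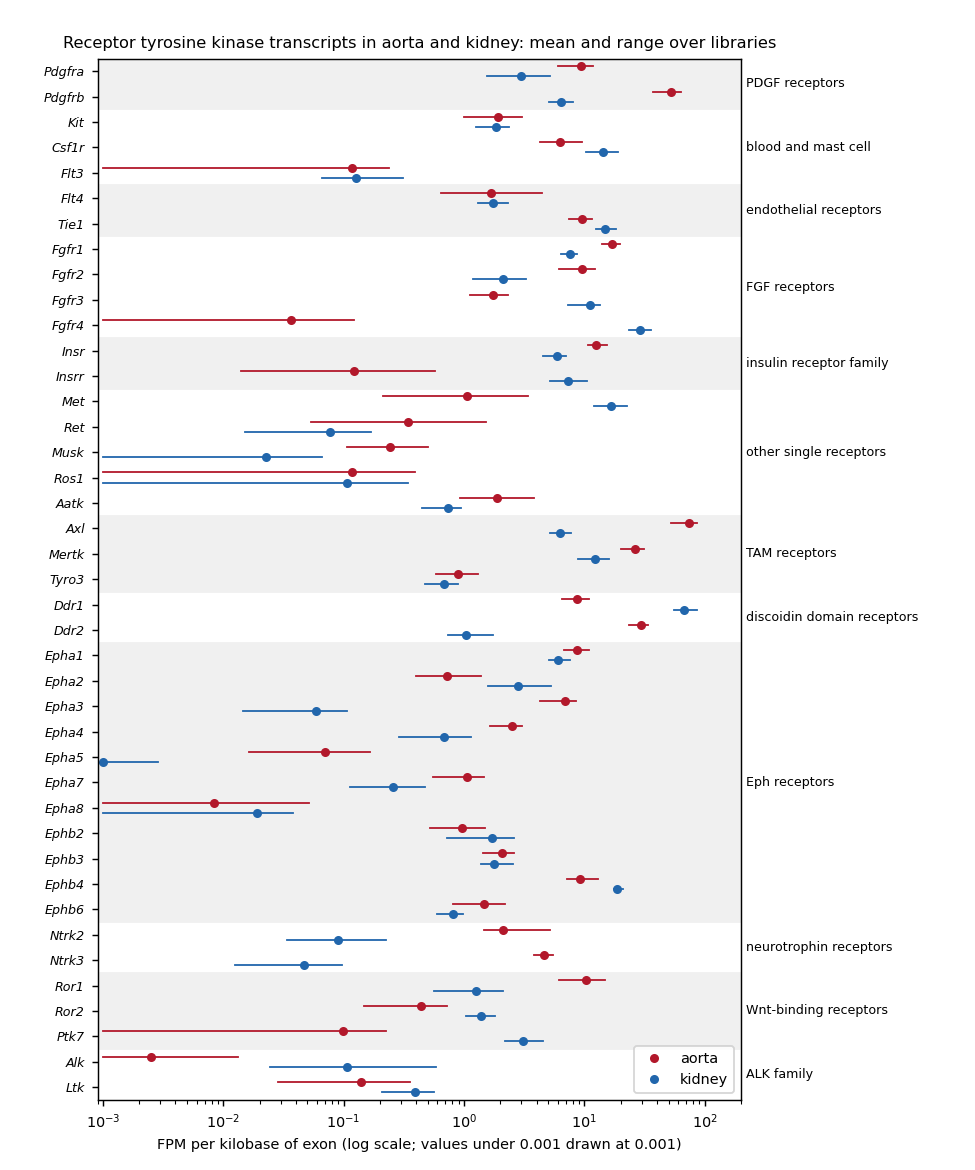
Level of each of the 41 receptors in FPM per kilobase of exon on a log axis, aorta in red and kidney in blue, grouped by receptor family. Dots are means over the 14 aortae or 16 kidneys, lines run from the lowest to the highest library, and values under 0.001 are drawn at 0.001. Axl and Pdgfrb led in aorta, at 73.7 and 52.0, and Ddr1 and Fgfr4 in kidney, at 67.2 and 28.8.

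The TAM receptors, which bind GAS6 and protein S and are known from the clearance of dead cells, formed the largest family in aorta, with 32.0% of the summed per-kilobase level of the 41 receptors. Axl (ENSMUSG00000002602, chromosome 7, 25757273 to 25788705) was the most abundant receptor of the aorta at 73.7 ± 9.98 FPM per kilobase (SD, n = 14), against 6.25 ± 0.833 in kidney (SD, n = 16), a ratio of 11.8 between tissues. Mertk (ENSMUSG00000014361, chromosome 2, 128698956 to 128802894) followed with 26.4 ± 3.64 in aorta and 12.2 ± 1.92 FPM per kilobase in kidney. Tyro3 was low in both, at 0.891 and 0.678 FPM per kilobase. In kidney Mertk was thus the highest TAM receptor, and the family held 7.68% of the receptor level there.

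PDGF receptors came next in aorta with 19.4%, and held 3.74% in kidney. Pdgfrb (ENSMUSG00000024620, chromosome 18, 61045150 to 61085061), the receptor of smooth muscle cells and pericytes for PDGF-B, stood at 52.0 ± 8.13 FPM per kilobase in aorta and 6.33 ± 0.906 in kidney. Pdgfra, known from fibroblasts, stood at 9.39 ± 1.63 in aorta and 2.99 ± 1.12 FPM per kilobase in kidney. Both receptors were higher in every aorta than in every kidney.

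The discoidin domain, FGF and insulin receptor families also had a different highest member in each tissue. Among the collagen-binding discoidin domain receptors, Ddr2 (ENSMUSG00000026674, chromosome 1, 169972307 to 170110762) was at 29.4 ± 2.89 FPM per kilobase in aorta and 1.05 ± 0.285 in kidney, while Ddr1 (ENSMUSG00000003534, chromosome 17, 35681567 to 35704621) was at 8.64 ± 1.45 in aorta and 67.2 ± 8.35 in kidney. Ddr1 was the most abundant receptor of the kidney, and the pair held 27.4% of the receptor level there. Among the FGF receptors, Fgfr1 and Fgfr2 were the aortic members, with 17.0 ± 1.67 and 9.53 ± 2.07 FPM per kilobase against 7.60 ± 0.663 and 2.12 ± 0.585 in kidney. Fgfr3 and Fgfr4 were the renal members. Fgfr3 stood at 11.1 ± 1.69 FPM per kilobase in kidney and 1.75 ± 0.402 in aorta, and Fgfr4 (ENSMUSG00000005320, chromosome 13, 55152640 to 55168759) at 28.8 ± 3.25 in kidney with 17 counts in all in the 14 aortae. The insulin receptor Insr was at 12.6 ± 1.36 in aorta and 5.92 ± 0.792 FPM per kilobase in kidney, while the insulin receptor-related Insrr, known as a sensor of alkaline pH, was at 0.121 in aorta and 7.30 ± 1.57 in kidney.

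Several single receptors differed between the tissues. Met (ENSMUSG00000009376, chromosome 6, 17463800 to 17573980), the receptor for hepatocyte growth factor, was at 16.7 ± 3.0 FPM per kilobase in kidney and 1.05 ± 1.08 in aorta, where the SD exceeded the mean. Csf1r, the receptor of macrophages for CSF1 and IL34, was at 14.4 ± 1.85 in kidney and 6.22 ± 1.51 FPM per kilobase in aorta. Ptk7, a receptor without kinase activity, was at 3.06 ± 0.659 in kidney and 0.0996 in aorta. Among endothelial receptors Tie1 was at 14.7 ± 1.60 in kidney and 9.51 ± 1.42 FPM per kilobase in aorta, and Flt4, the VEGF-C receptor of lymphatic vessels, at 1.73 and 1.66.

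Both neurotrophin receptors were higher in every aorta than in every kidney, while the receptors for WNT5A went both ways. Ntrk3, which binds neurotrophin-3, was at 4.58 ± 0.470 FPM per kilobase in aorta and 0.0469 in kidney, and Ntrk2, which binds BDNF, at 2.12 ± 0.993 and 0.0905. Ror1 was at 10.3 ± 2.25 FPM per kilobase in aorta and 1.27 ± 0.342 in kidney, whereas Ror2 was at 0.440 and 1.38. The 11 Eph receptors together held 10.7% of the receptor level in aorta and 13.2% in kidney. Ephb4, the ephrin-B2 receptor of venous endothelium, was their highest member in both tissues, at 9.26 ± 1.59 and 18.7 ± 1.10 FPM per kilobase. Epha3 was at 6.84 ± 1.38 in aorta and 0.0589 FPM per kilobase in kidney.

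Few receptors were too low to test. In aorta these were Insrr with 80 counts over all libraries, Ptk7 with 68, Ltk with 61, Fgfr4 with 17, Epha8 with 5 and Alk with 3. In kidney they were Epha8 with 28 counts, Musk with 27 and Epha5 with 2. Epha8 was the single receptor tested in neither tissue, and 33 receptors were tested in both. Among those tested, the coefficient of variation within groups had a median of 21.4% in aorta (8.19% to 115%) and 19.0% in kidney (5.35% to 120%).

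Promoter sequence was read for Axl and Met, the receptors that passed edgeR's test of diet averaged over genotypes described below. It is given to show the letters next to their starts. The sequences are the 250 bases before the RefSeq start (GRCm38.p6), 5′ to 3′ on the strand of the gene, with the GC box letters GGGCGG in capitals. RefSeq starts were on hand for 34 of the 41 receptors. Axl lies on the minus strand (chr7:25788734-25788983) and Met on the plus strand (chr6:17463707-17463956).
Axl: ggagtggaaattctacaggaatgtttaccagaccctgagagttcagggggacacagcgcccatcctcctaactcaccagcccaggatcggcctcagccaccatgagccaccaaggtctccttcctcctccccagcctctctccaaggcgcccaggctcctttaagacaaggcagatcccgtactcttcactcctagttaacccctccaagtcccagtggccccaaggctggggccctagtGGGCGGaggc
Met: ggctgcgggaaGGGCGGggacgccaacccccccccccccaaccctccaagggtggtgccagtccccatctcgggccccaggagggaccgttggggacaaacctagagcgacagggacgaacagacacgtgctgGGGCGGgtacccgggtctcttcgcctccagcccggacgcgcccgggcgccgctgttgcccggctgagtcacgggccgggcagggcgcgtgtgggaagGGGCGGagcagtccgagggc
The Axl window held 60% G and C and 1 GGGCGG, from 10 to 5 bases before the start. The Met window held 74% G and C and 3 copies, from 239 to 234, 117 to 112 and 20 to 15 bases before the start. The GENCODE gene begins ahead of the RefSeq start in Met, so that 157 of its 250 bases, with 2 of the 3 copies, lie inside the gene as given above, while the Axl window lies outside its gene. Neither window held CCAAT or TATAAA on either strand. Over the windows of the same length at 32851 RefSeq starts, 32.7% held GGGCGG on either strand, 33.8% CCAAT and 12.4% TATAAA, and the median GC content was 52.4%. A match of letters is not a measured binding site.

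The first question was what 18 weeks of HFD did to the receptors of the aorta. No receptor passed an adjusted p of 0.05 in edgeR's quasi-likelihood test in WT or in KO aortae. Of all genes, 0% passed in WT and 0% in KO. At an unadjusted p under 0.05, 10 of 35 receptors differed in WT, 4 higher and 6 lower on HFD (28.6%, against 17.0% of all genes, of which 5.68% were higher and 11.3% lower), and 1 differed in KO (2.86%, against 7.85%). The median log2 fold change of the receptors was 0.09 in WT and 0.02 in KO, and that of all genes −0.01 and −0.0019. DESeq2, run as an alternative, passed 2 receptors in WT, Ntrk2 and Ror1, among 4.50% of all genes, and 0 in KO, among 0.0541%.

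Some receptors of WT aortae were separated between diets without passing the test. In 2 the HFD aortae all lay higher and in 2 all lower, as they did in 4.43% and 4.53% of all genes. Ephb3, an ephrin receptor, had 13.1, 9.54 and 11.0 FPM on SFD and 16.7, 14.7, 15.3 and 14.2 FPM on HFD (log2 fold change 0.45, SE 0.179, edgeR adjusted p = 0.213). Ddr2 had 225, 260 and 252 FPM on SFD and 311, 279, 275 and 287 FPM on HFD (0.23, SE 0.107, edgeR adjusted p = 0.288). These were the higher pair. Fgfr3 had 16.5, 15.9 and 15.2 FPM on SFD and 12.6, 9.45, 9.07 and 12.5 FPM on HFD (−0.54, SE 0.217, edgeR adjusted p = 0.215). Insr had 194, 213 and 167 FPM on SFD and 163, 164, 166 and 155 FPM on HFD (−0.24, SE 0.106, edgeR adjusted p = 0.262). The lowest SFD value of Insr came from replicate 3, the WT-SFD aorta with few adipocyte transcripts. Without the aortae rich in adipocyte transcripts, which leaves replicate 3 as the single WT-SFD library, the differences were 0.48 for Ephb3, 0.20 for Ddr2, −0.47 for Fgfr3 and −0.04 for Insr. With the adipocyte covariate they were 0.30, 0.15, −0.35 and −0.12. None of the 4 passed in edgeR in either setting, with adjusted p-values of 0.767 to 0.979. Over all 15 alternatives Insr ran from −0.33 to −0.04 and Fgfr3 from −0.62 to −0.35.

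The smallest p-values in WT belonged to receptors whose SFD aortae disagreed among themselves, named after their values were seen. Ntrk2 had 99.4, 60.1 and 30.3 FPM in WT-SFD and 28.1, 31.3, 33.5 and 30.2 FPM in WT-HFD aortae (−1.04, SE 0.274, edgeR adjusted p = 0.0736). Ror1 had 36.4, 35.2 and 53.6 FPM on SFD and 62.1, 53.5, 65.5 and 62.7 FPM on HFD (0.55, SE 0.166, edgeR adjusted p = 0.0989). Axl had 263, 283 and 377 FPM on SFD and 362, 394, 405 and 426 FPM on HFD (0.37, SE 0.129, edgeR adjusted p = 0.150). Without the aortae rich in adipocyte transcripts the WT differences were 0.02 for Ntrk2, 0.19 for Ror1 and 0.08 for Axl, and with the covariate −0.30, 0.35 and 0.18, with edgeR adjusted p-values of 0.653 to 0.993. In each of the 3 WT-SFD replicate 3 lay with or near the HFD aortae and replicates 1 and 2 lay apart. Without WT-SFD replicate 3, 12 receptors passed in WT, as did 12.4% of all genes. Of these 6 were higher on HFD (Pdgfrb, Axl, Tyro3, Ddr1, Epha3 and Ror1) and 6 were lower (Flt4, Met, Ntrk2, Ptk7, Ret and Aatk). Ptk7, with 68 counts in the 14 aortae, failed the filter on low values with all libraries and passed it here through libraries in which it was high, and its call is therefore no result.

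Averaged over both genotypes, a contrast added after the data were seen, 1 receptor passed in aorta, among 3.95% of all genes, and 8 had an unadjusted p under 0.05 (22.9%, against 18.8%). DESeq2 passed 3 receptors, Met, Flt4 and Ntrk2, among 6.81% of all genes, and without WT-SFD replicate 3 edgeR passed 11, among 12.6%. Those 11 include Ptk7 and Insrr, which failed the filter with all libraries and passed it there in the same way. Met was lower on HFD. Its levels were 19.8, 23.0 and 3.18 FPM in WT-SFD, 26.1, 6.13 and 4.44 FPM in KO-SFD, 6.53, 3.22, 4.38 and 4.22 FPM in WT-HFD and 2.32, 4.88, 2.96 and 1.64 FPM in KO-HFD aortae. The high values were those of WT-SFD replicates 1 and 2 and KO-SFD replicate 1. The mean was 13.8 ± 10.3 FPM on SFD (SD, n = 6) and 3.77 ± 1.56 FPM on HFD (SD, n = 8), a log2 fold change of −1.87 (95% interval −2.81 to −0.93, adjusted p = 0.0288 by edgeR's quasi-likelihood test). With the mean of the adipocyte markers as a covariate the Met difference was −0.14, and without the 4 aortae rich in adipocyte transcripts it was −0.0036, with edgeR adjusted p-values of 0.970 and 1.0. Without these aortae each SFD group has 1 library, whose spread is taken from the other groups.

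**Figure D2:**
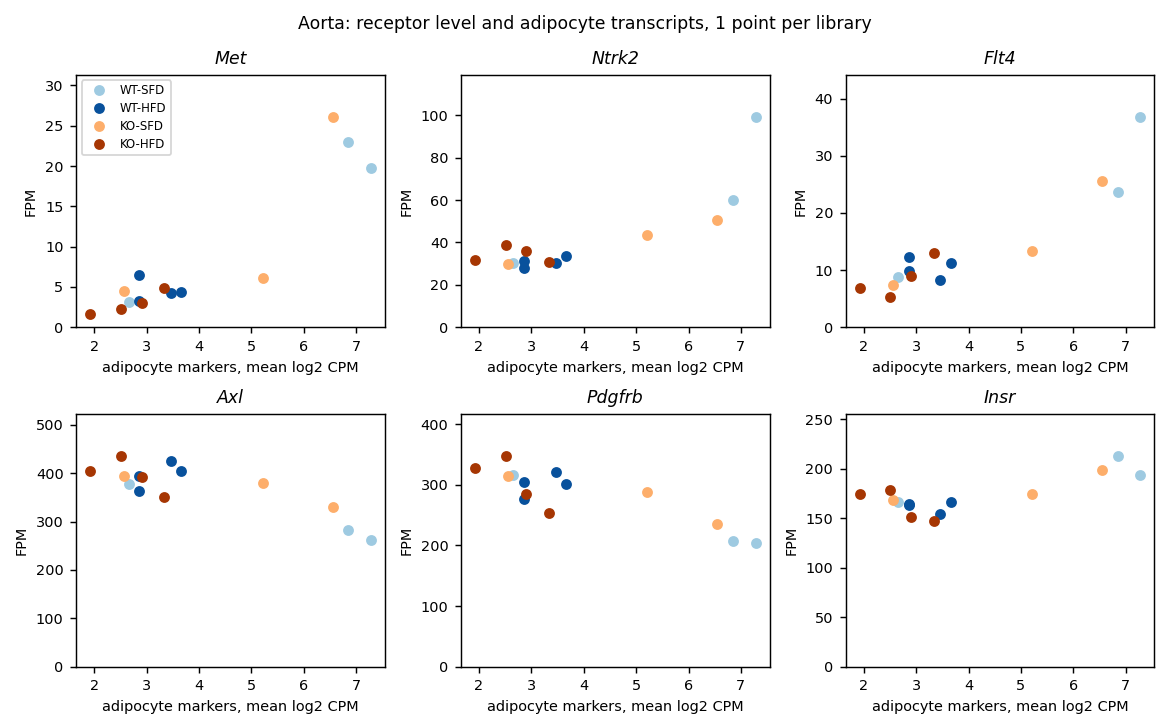
Level of Met, Ntrk2, Flt4, Axl, Pdgfrb and Insr in FPM against the mean log2 CPM of 20 adipocyte markers, 1 point for each of the 14 aortae, coloured by group. WT-SFD replicates 1 and 2 and KO-SFD replicate 1 lie to the right, where Met is at 19.8 to 26.1 FPM, and all others lie at or below 6.53.

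Other receptors were compared between the 4 aortae rich in adipocyte transcripts and the other 10. By the rule that picked them the 4 are all SFD aortae, and the 10 hold all HFD aortae. Adipocyte transcripts and diet therefore cannot be told apart in this split. Flt4 was at 36.8, 23.6, 25.6 and 13.4 FPM in the 4 aortae rich in adipocyte transcripts and between 5.26 and 13.0 FPM in the other 10. Flt4 and Ntrk2 were higher in every one of the 4 than in all others (5.71% of the 35 tested receptors, against 5.38% of all genes), and Tyro3 and Ddr1 lower in every one (5.71%, against 1.86%). With the adipocyte covariate the diet differences averaged over genotypes were 0.0048 for Ntrk2, 0.13 for Flt4, 0.05 for Axl and 0.16 for Ror1, against −0.65, −0.99, 0.24 and 0.35 without it. When the 4 aortae were left out they were 0.12, 0.23, 0.04 and 0.14. Ret, the receptor for GDNF-family ligands, turned from −1.43 to 1.15 with the covariate and to 1.63 without the 4 aortae, and had 10.2 FPM in WT-SFD replicate 1 and 5.63 FPM or less in the other aortae. No receptor passed with the covariate. The share of all genes that passed in that setting is not given, so this count is no result about the receptors. Without the 4 aortae each SFD group has 1 library, and only the size of the differences is given. The adipocyte markers themselves were lower on HFD in 17 of 20 by the same edgeR test. Of 8 endothelial markers 4 had an unadjusted p under 0.05 for diet averaged over genotypes, 1 higher and 3 lower on HFD (50%, against 18.8% of all genes). By edgeR 0 of them passed. The part of other cells in these differences was not tested beyond the covariate and the left-out aortae.

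In kidney Axl was the only receptor that passed for diet in the main edgeR fit with all libraries, and it did so when both genotypes were averaged. By the tests within genotypes no receptor passed an edgeR adjusted p of 0.05, while 0.964% of all genes did in WT and 2.39% in KO. At an unadjusted p under 0.05, 1 of 38 receptors differed in WT (2.63%, against 8.05% of all genes) and 8 in KO, 4 higher and 4 lower (21.1%, against 16.1%, of which 8.86% were higher and 7.28% lower). The median log2 fold change of the receptors was 0.0040 in WT and 0.12 in KO, and that of all genes −0.0047 and −0.0037. DESeq2 passed 1 of 38 receptors in WT, Axl (adjusted p = 0.0233), among 1.75% of all genes, and 0 in KO, among 4.62%.

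Axl was at 26.6, 26.8, 29.3 and 26.1 FPM in WT-SFD kidneys and at 36.8, 31.9, 33.8 and 36.6 FPM in WT-HFD kidneys. In KO it was at 32.4, 26.5, 27.5 and 29.0 FPM on SFD and at 39.2, 34.7, 32.2 and 34.1 FPM on HFD. The WT groups did not overlap, as in 3.02% of all genes with all HFD kidneys higher, and in KO 1 SFD kidney lay just above the lowest HFD kidney. The log2 fold change was 0.35 in WT (SE 0.090, edgeR adjusted p = 0.0871) and 0.28 in KO (edgeR adjusted p = 0.124). The difference between genotypes was −0.07 (95% interval −0.34 to 0.20, edgeR adjusted p = 0.999588). Averaged over both genotypes, in the contrast added after the data were seen, Axl rose from 28.0 ± 2.12 to 34.9 ± 2.47 FPM (SD, n = 8 each), 1.25-fold (log2 0.32, 95% interval 0.18 to 0.45, adjusted p = 0.00688 by edgeR's quasi-likelihood test). It was the 1 receptor of 38 that passed this contrast, among 4.62% of all genes, and 4 had an unadjusted p under 0.05 (10.5%, against 18.2%). DESeq2 passed 2, Axl and Mertk, among 7.33% of all genes. With library totals in place of TMM factors its adjusted p by edgeR was 0.0538.

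The other TAM receptors did not pass by edgeR. Mertk, the higher of the renal TAM receptors, was at 52.5, 39.6, 49.1 and 54.2 FPM in WT-SFD and 53.2, 52.5, 59.2 and 56.8 FPM in WT-HFD kidneys. In KO it was at 49.6, 38.1, 57.8 and 40.2 FPM on SFD and 59.0, 56.0, 69.3 and 60.8 FPM on HFD. The KO difference was 0.40 on the log2 scale (SE 0.128, edgeR adjusted p = 0.124) and that over both genotypes 0.29 (edgeR adjusted p = 0.0809), neither past the threshold, while DESeq2 passed the latter (adjusted p = 0.0407). Without KO-SFD replicate 3, whose Mertk value of 57.8 FPM was the highest of its group, the KO difference was 0.52 (edgeR adjusted p = 0.0405), where 1.75% of all genes passed, and Mertk also passed over both genotypes, where 4.11% did. Tyro3 differed by −0.11 over both genotypes (edgeR adjusted p = 0.685), with 2.96 to 5.55 FPM in all kidneys.

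Gas6 (ENSMUSG00000031451), the ligand that the TAM receptors share, passed in KO kidneys. It was at 405, 480, 433 and 466 FPM in KO-SFD and at 555, 544, 775 and 673 FPM in KO-HFD kidneys (log2 fold change 0.51, SE 0.130, adjusted p = 0.0469 by edgeR's quasi-likelihood test). In WT it was at 418, 530, 407 and 448 FPM on SFD and 585, 653, 513 and 511 FPM on HFD, a difference of 0.33 that did not pass (edgeR adjusted p = 0.473). The diets did not overlap in KO and overlapped in WT, and the diet effect was 0.18 higher in KO than in WT on the log2 scale (95% interval −0.20 to 0.57, edgeR adjusted p = 0.999588). Over both genotypes Gas6 rose by 0.42 (SE 0.092, edgeR adjusted p = 0.0118), while Pros1, which encodes the other TAM ligand protein S, differed by 0.13 (edgeR adjusted p = 0.531).

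**Figure D3:**
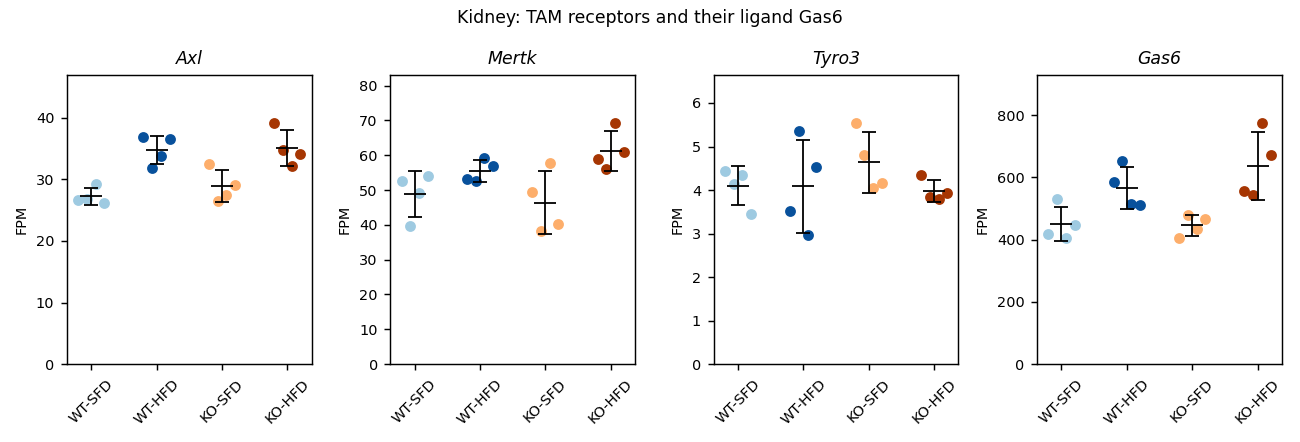
Axl, Mertk, Tyro3 and Gas6 in the 16 kidneys in FPM, by group, with 1 dot per library and the mean ± SD of the 4 libraries of each group. All WT-HFD kidneys lie above all WT-SFD kidneys for Axl, and all KO-HFD above all KO-SFD kidneys for Gas6.

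Markers of other cell types also differed between diets in kidney. The summed adipocyte markers were 978 to 1449 FPM in WT-SFD and 1012 to 2086 FPM in KO-SFD against 588 to 879 and 569 to 966 FPM on HFD, with Lpl the most abundant at a mean of 577 FPM and none at 0. Of 18 adipocyte markers tested, 3 were lower and 1 was higher by edgeR over both genotypes. The summed fibroblast markers were 75.9 ± 10.9 and 83.1 ± 16.6 FPM in WT-SFD and KO-SFD and 98.2 ± 15.0 and 96.3 ± 10.2 FPM on HFD (SD, n = 4), led by Col14a1 at 33.1 FPM, and 1 of 8 was higher by edgeR. The summed leucocyte markers were 159 ± 56.3 and 187 ± 51.9 FPM on SFD and 202 ± 38.5 and 202 ± 87.8 FPM on HFD, led by Lyz2 at 56.8 FPM, and 0 of 10 passed in edgeR, 2 of them with an unadjusted p under 0.05. Among tubular markers over both genotypes, Slc12a3 and Pvalb of the distal tubule passed as higher (2 of 5 loop of Henle and distal tubule markers, smallest edgeR adjusted p = 3.90e-04), while the sum of that list, led by Umod, was 6918 ± 745 and 7820 ± 309 FPM on SFD and 6066 ± 788 and 5613 ± 987 FPM on HFD. Of 8 proximal tubule markers Slc5a2 passed as higher (edgeR adjusted p = 1.87e-05). In all 4 of the 8 were higher and 4 lower, with 2 higher and 2 lower at an unadjusted p under 0.05. The sum of that list, led by Kap, was 31367.5 and 30717 FPM in WT-SFD and KO-SFD and 26698.4 and 27027.5 FPM in WT-HFD and KO-HFD kidneys. None of 8 collecting duct and 5 podocyte markers passed by edgeR, with 6 collecting duct markers lower and 3 podocyte markers higher at an unadjusted p under 0.05. In KO alone 4 of 5 podocyte markers were higher at that threshold, with sums of 196 ± 18.4 FPM on SFD and 262 ± 45.2 FPM on HFD. The part of all these cell types in the Axl, Mertk and Gas6 differences was not tested.

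The other renal receptors with an unadjusted p under 0.05 in KO kidneys, all but Csf1r named after their values were seen, differed in both directions. Csf1r was at 94.2, 85.0, 109 and 82.2 FPM in KO-SFD and 81.7, 78.5, 59.6 and 82.1 FPM in KO-HFD kidneys, so that the diets lay next to each other without overlapping, as in 3.85% of all genes with HFD lower (−0.29, SE 0.116, edgeR adjusted p = 0.223). Over 14 alternatives this difference ran from −0.35 to −0.19. Of 10 leucocyte markers 3 were higher and 0 lower on HFD in KO kidneys at an unadjusted p under 0.05, and 0 passed by edgeR. In WT kidneys Csf1r was at 87.0, 71.1, 86.5 and 73.0 FPM on SFD and 77.1, 86.0, 86.6 and 87.5 FPM on HFD, and the difference between the genotypes' diet effects was −0.38 (edgeR adjusted p = 0.9996). Fgfr3 was at 63.9, 52.3, 86.1 and 67.6 FPM in KO-SFD and 88.6, 72.7, 92.9 and 94.6 FPM in KO-HFD kidneys (0.37, edgeR adjusted p = 0.180). Ephb3 differed by 0.41, Fgfr2 by −0.49, Ntrk2 by −0.87 and Alk by −1.85 on the log2 scale, with edgeR adjusted p-values of 0.211, 0.308, 0.299 and 0.211. For Alk the mean rested on KO-SFD replicate 3, at 4.50 FPM, while the other 15 kidneys had 1.21 FPM or less.

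**Figure D4:**
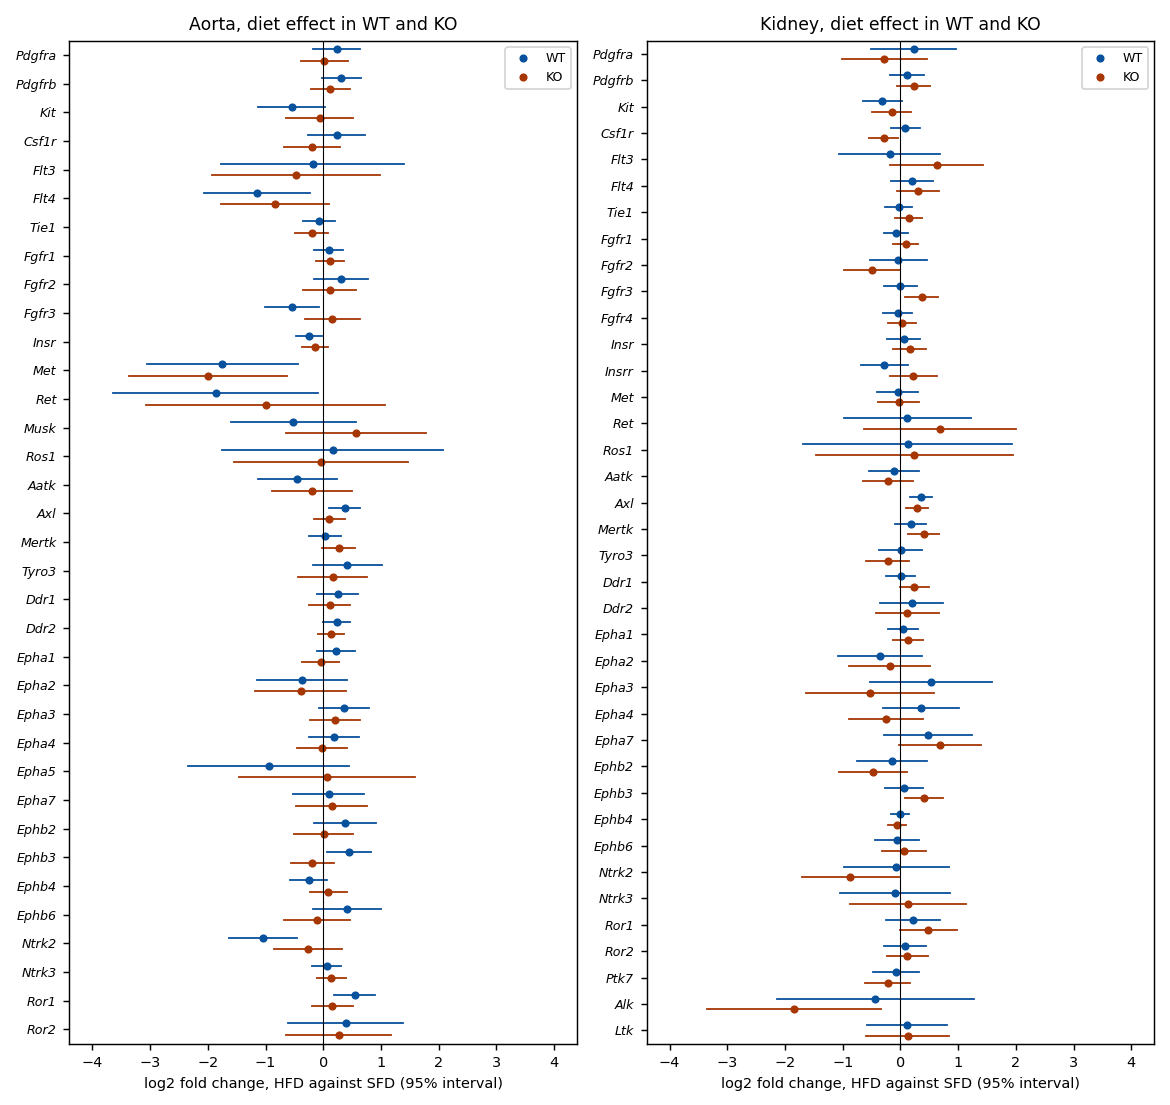
Log2 fold change of HFD over SFD with its 95% interval for each tested receptor, in WT and in KO, with 35 receptors in aorta and 38 in kidney. The dots of Axl lie above 0 in both genotypes of both tissues, and those of Met lie far below 0 in aorta and near 0 in kidney.

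Between KO and WT no receptor had a difference that passed the test. Within each diet the aortic test did not pass Egfr itself either, although its genotypes did not overlap. A count of 0 within a diet therefore does not show that the receptors were unchanged. In aorta KO against WT gave 0 receptors by edgeR on SFD and 0 on HFD, with 0.0811% of all genes in either. At an unadjusted p under 0.05 there were 3 receptors on SFD (8.57%, against 6.54% of all genes) and 2 on HFD (5.71%, against 5.35%). In kidney there were 0 by edgeR on both diets, among 0.0133% of all genes on SFD and 0% on HFD, and 1 at an unadjusted p on SFD (2.63%, against 8.69%) and 0 on HFD (0%, against 1.75%). DESeq2 passed 0 receptors in each of these 4 comparisons, among 0.142% and 0.270% of all genes on SFD and HFD in aorta and 0.173% and 0.00665% in kidney. Averaged over diets, edgeR passed 0 receptors in either tissue, among 0.196% of genes in aorta and 0.0133% in kidney, and the unadjusted counts were 3 (8.57%, against 7.17%) and 0 (0%, against 5.93%). DESeq2 passed 0 there too, among 0.372% and 0.0998% of genes.

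On HFD the aortic genotypes were separated in Mertk and Tie1, as in 2.15% of genes with KO higher and 2.03% with KO lower. Mertk was at 117, 112, 108 and 99.0 FPM in WT-HFD and 132, 129, 131 and 131 FPM in KO-HFD aortae (log2 fold change 0.26, SE 0.121, edgeR adjusted p = 0.930). Tie1, the endothelial partner of the angiopoietin receptor, was at 48.7, 54.5, 50.7 and 44.5 FPM in WT-HFD and 36.6, 44.0, 42.9 and 37.5 FPM in KO-HFD aortae (−0.30, SE 0.124, edgeR adjusted p = 0.883). On SFD Mertk was at 92.5, 106 and 121 FPM in WT-SFD aortae, and 86.9, 104 and 135 FPM were measured in KO-SFD aortae, so that the genotypes overlapped. The summed endothelial markers, led by Pecam1, were 839 to 1070 FPM in WT-HFD and 823 to 1031 FPM in KO-HFD aortae. Of 8 endothelial markers tested, 3 were higher and 5 lower in KO-HFD, and 0 passed by edgeR. Of these 1, Sox17, was lower at an unadjusted p under 0.05 (12.5%, against 5.35% of all genes), and 1 was lower without overlap. The part of endothelial cells in the Tie1 difference was not tested. On SFD the receptors with the lowest p between genotypes were Ror1 (0.56), Ephb4 (−0.44) and Ephb3 (0.44), each with overlapping genotypes and edgeR adjusted p-values of 0.680, 0.708 and 0.744. In that comparison all 20 adipocyte markers were lower in KO, with a median log2 fold change of −0.99. Of these 1 had an unadjusted p under 0.05 (5%, against 6.54% of all genes) and 0 passed by edgeR. The 3 receptor differences are not given with the adipocyte covariate or without the aortae rich in adipocyte transcripts. Without an unadjusted p under 0.05, Csf1r was higher (0.47) and Musk lower (−1.02) in every KO-SFD than in every WT-SFD aorta, as were 4.20% and 4.37% of all genes. The summed leucocyte markers, led by Lyz2 and with none at 0, were 118, 115 and 124 FPM in WT-SFD and 289, 187 and 181 FPM in KO-SFD aortae, against 118 to 202 and 107 to 292 FPM on HFD. Of 10 leucocyte markers 9 were higher in KO-SFD at an unadjusted p under 0.05 and 8 did not overlap, while 0 passed by edgeR. Their part in the receptor differences was not tested.

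The effect of diet was compared between genotypes directly. By edgeR 0 receptors passed in aorta and 0 in kidney, as did 0% of all genes in both, and DESeq2 passed 0 in each, among 0.0135% and 0.00665% of genes. At an unadjusted p under 0.05 there were 2 in aorta (5.71%, against 4.37% of all genes) and 1 in kidney (2.63%, against 3.35%). In aorta these were Fgfr3, whose diet effect was 0.70 higher in KO than in WT on the log2 scale, and Ephb3, whose effect was 0.64 lower (−0.64), both with an edgeR adjusted p of 0.998. Over 21 alternatives the Fgfr3 difference ran from 0.45 to 1.12 and that of Ephb3 from −0.89 to −0.53. Fgfr3 in KO aortae was at 15.3, 10.6 and 7.98 FPM on SFD and 12.1, 9.30, 15.5 and 13.0 FPM on HFD. Ephb3 in KO aortae was at 10.6, 17.3 and 17.4 FPM on SFD and between 11.5 and 14.5 FPM on HFD. In both the KO diets overlapped, while the WT diets did not.

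Ligands and co-receptors of these receptors were followed in a list of 62 genes, of which 59 were in the tables and 45 were tested in each tissue. Those without a count include Efnb1, Fgf16, Il34 and Pdgfd, which lie in the regions without counts. Between diets within the genotypes 1 of 45 passed by edgeR in kidney, Gas6 in KO (2.22%, against 2.39% of all genes), and 0 in aorta. At an unadjusted p under 0.05 there were 10 in WT (22.2%, against 17.0%) and 5 in KO aortae (11.1%, against 7.85%), and 5 in WT (11.1%, against 8.05%) and 12 in KO kidneys (26.7%, against 16.1%). Over both genotypes 3 were higher on HFD in kidney and 1 was lower (8.89% in all, against 4.62% of all genes). Beside Gas6 these were Fgf10, an FGF that acts on the epithelial form of FGFR2 (log2 fold change 1.30, edgeR adjusted p = 0.0198, at a mean of 0.563 FPM on SFD and 1.38 FPM on HFD), and Angpt1, the angiopoietin that activates the receptor complex containing TIE1 (0.45, edgeR adjusted p = 0.0236). Fgf10 had 5 to 22 counts in SFD kidneys and 14 to 44 in HFD kidneys. It passed the filter on low values mainly through the HFD kidneys, where it was high. Its call and fold follow in part from that. The lower gene was Gfra1, the co-receptor through which GDNF binds RET (−0.74, edgeR adjusted p = 0.0413, 7.17 ± 1.86 and 4.28 ± 1.54 FPM). In aorta 1 passed over both genotypes (2.22%, against 3.95%), Klb, the beta-Klotho co-receptor of FGF21, which is known from adipocytes (−4.16, edgeR adjusted p = 0.0168). Klb was at 20.5, 13.0, 6.70 and 4.60 FPM in the 4 aortae rich in adipocyte transcripts and at 1.04 FPM or less in the others, with 0 to 10 counts. It passed the filter on low values through those 4 aortae, so its call and fold follow from them. With the adipocyte covariate the difference was −0.67 (edgeR adjusted p = 0.932), and without these aortae Klb was too low to test.

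Ligands and co-receptors whose diet groups did not overlap were also counted. Of the 45 tested, 2 were lower in every WT-HFD aorta (4.53% of all genes were). In KO aortae 3 were higher and 2 lower on HFD (3.45% and 3.59% of all genes). In kidney 3 were higher on HFD in WT (3.02%), and 4, Gas6 among them, were higher and 1 lower in KO (5.02% and 3.85%). Those of them that did not pass but had an unadjusted p under 0.05 follow. In WT aortae Fgf9 (−2.29) and Kitl (−0.28), the ligand of KIT, were lower on HFD, and in KO aortae Pdgfa (0.30) and Gfra4 (0.62) were higher and Klb (−3.56) was lower. In WT kidneys Fgf10 (1.61) and Mdk (1.13), the midkine ligand of ALK, were higher on HFD, and in KO kidneys Angpt1 (0.58), Vegfc (0.56) and Kitl (0.42) were higher and Ntf3 (−0.71) was lower. Their edgeR adjusted p-values lay between 0.0653 and 0.595. Fgf10 had 5 to 13 counts in WT-SFD kidneys and passed the filter on low values mainly through HFD kidneys. Fgf9 had 12, 14 and 4 counts in WT-SFD and 0 to 4 in WT-HFD aortae. It passed that filter in part through WT-SFD replicates 1 and 2, where it was high. In aorta the adipocyte covariate made these differences −1.28 for Fgf9, −0.20 for Kitl, 0.15 for Pdgfa, 0.32 for Gfra4 and −0.57 for Klb. Without the aortae rich in adipocyte transcripts they were −1.21, −0.15, 0.26 and 0.27, with Klb not tested. Between genotypes Angpt4 was higher in KO aortae on HFD, at 12.4 ± 2.32 against 6.37 ± 0.866 FPM (0.96, edgeR adjusted p = 0.566), and the diet effect on Efnb2, the ligand of EPHB4, was lower in KO than in WT aortae (−0.55, edgeR adjusted p = 0.998). Efnb2 was at 44.6 and 49.1 FPM in WT-SFD replicates 1 and 2, which are rich in adipocyte transcripts. It was at 77.5 FPM in WT-SFD replicate 3 and at 71.5 to 89.4 FPM in WT-HFD aortae. In KO aortae it was at 66.8, 83.9 and 82.9 FPM on SFD and 72.5 to 77.3 FPM on HFD. For the genotypes in kidney the share of all genes without overlap was 1.90% with KO higher and 2.09% with KO lower on SFD, and 0.645% with KO higher on HFD. In kidneys on SFD Efna4 (0.64) was higher and Vegfc (−0.46) and the FGF23 co-receptor Kl (−0.36) were lower in KO, with edgeR adjusted p-values of 0.521, 0.472 and 0.532. In the same SFD comparison 5 of 5 podocyte markers were lower in KO at an unadjusted p under 0.05, 3 of them without overlap and 0 past edgeR's adjusted threshold, with sums of 171 to 214 FPM in KO-SFD and 226 to 313 FPM in WT-SFD kidneys, led by Podxl. At the same unadjusted threshold 2 of 5 loop of Henle and distal tubule markers, Slc12a3 and Calb1, were lower in KO-SFD kidneys. Of 18 adipocyte markers 4 were higher there, and 0 of either list passed by edgeR. The part of these cell types in the differences of Efna4, Vegfc and Kl was not tested. Artn was higher in KO kidneys on HFD (0.60, edgeR adjusted p = 1.0).

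Adaptors and effectors that the receptors share, such as Grb2, Shc1, Frs2 and Ptpn11, gave no call in edgeR. Of 23 listed, 21 were tested in each tissue, and 0 passed by edgeR in any comparison, and Cbl and Plcg2 lie in the regions without counts. Between diets 2 in WT aortae (9.52%, against 17.0% of all genes), 1 in KO aortae (4.76%, against 7.85%), 1 in WT kidneys (4.76%, against 8.05%) and 2 in KO kidneys (9.52%, against 16.1%) had an unadjusted p under 0.05. Separated without passing were Grb14, an adaptor that binds the insulin receptor (0.41, edgeR adjusted p = 0.0908, DESeq2 adjusted p = 0.0480), and Crkl (0.33, edgeR adjusted p = 0.125) on HFD in WT aortae, and Ptpn11, which encodes the phosphatase SHP2 (0.23, edgeR adjusted p = 0.558), in KO aortae. With the adipocyte covariate and without the aortae rich in adipocyte transcripts the differences were 0.42 and 0.50 for Grb14, 0.33 and 0.26 for Crkl and 0.17 and 0.18 for Ptpn11, with edgeR adjusted p-values of 0.630 to 1.0. In KO kidneys Grb10, a relative of Grb14, was higher on HFD (0.33, edgeR adjusted p = 0.187). Frs3 was lower in KO than in WT kidneys on SFD (−0.34, edgeR adjusted p = 0.532).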

How the data were processed

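RNA of whole aorta, freed of fat and connective tissue, and of whole kidney was depleted of ribosomal RNA and sequenced in paired ends, with a company sequencing the kidneys and a university facility the aortae. The authors trimmed reads with cutadapt, aligned them to GRCm38/mm10 with TopHat and counted them with featureCounts. The deposited values are raw counts per gene. Genes were annotated through BiomaRt. The strand setting, the treatment of reads that map to several places and the gene models used for counting are not given in the sources used here.

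Each tissue was fitted alone in edgeR 4.0.16 (R 4.3.3), with TMM factors, the filter filterByExpr by group, the quasi-likelihood test with legacy settings off and Benjamini-Hochberg adjustment over all genes tested. All groups of a tissue entered one fit without covariates. FPM are the CPM of the TMM-scaled library. Per-kilobase levels use exon lengths of GENCODE vM21 on GRCm38, and sequences come from RefSeq. DESeq2 1.42.0 served as an alternative. Figures were drawn with matplotlib 3.10.9 in Python 3.11.15. The model code was tested on simulated data.

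The 41 receptors, the lists of ligands and adaptors and the marker lists were chosen with earlier results of these data known. Receptors past an adjusted p of 0.05 were named, and where fewer than 2 passed, up to 3 per direction whose groups did not overlap at an unadjusted p under 0.05, with the 6 most abundant per tissue. Receptors outside this rule were named after their values were seen. Lists of ligands and adaptors followed the same rule with at most 3 per direction. Contrasts averaged over genotypes or diets and the legacy test of edgeR were added after the data were seen. The alternatives were DESeq2, RLE factors, library totals, no filter, only the groups compared, each library left out, the adipocyte markers as covariate, the aortae rich in them left out, and other thresholds. A figure legend of the study gives 4 animals per aorta group, and 3 libraries of each genotype on SFD were analysed here. Replicates are mice named by number in the labels, and 3 mouse numbers occur in both tissues. Pairs of libraries within a tissue differed beyond sampling noise, so none was counted as a copy. Of the ligands Vegfd, Alkal1 and Alkal2, and of the markers Adgre1 and the red blood cell genes, were not found by symbol.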

Additional observations from a re-analysis of the deposited data

Results flagged for a closer look

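Single kidneys stood far from the other 3 of their group in 4 of 54 groups of 4 examined, over 19 pairs of tissue and gene, where chance flags about 1 in 20. Csf1r was lowest in KO-HFD replicate 3, at 59.6 FPM against 78.5 to 82.1 FPM in the others of its group. Csf1r was also lowest in WT-HFD replicate 1, at 77.1 FPM against 86.0 to 87.5 FPM. Fgfr4, the renal FGF receptor, was highest in KO-SFD replicate 3, at 111 FPM against 91.3 to 93.4 FPM. Fgfr4 was lowest in WT-HFD replicate 1, at 83.0 FPM against 111 to 112 FPM. Groups of 3, which are the SFD aortae, were not examined.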

How the results depend on the processing

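Counts of receptors past the threshold stayed at 0 in the planned comparisons under edgeR with RLE factors, library totals, no filter, only the groups compared and legacy settings. With DESeq2 there were 2 in WT aortae (Ntrk2 and Ror1), 1 in WT kidneys (Axl), and 3 in aorta (Met, Flt4 and Ntrk2) and 2 in kidney (Axl and Mertk) for diet averaged over genotypes, where edgeR gave 1 in each. DESeq2 called 4.50%, 1.75%, 6.81% and 7.33% of all genes in these comparisons. With the adipocyte covariate the aortic count averaged over genotypes was 0, and the share of all genes in that setting is not given. With library totals the kidney count was 0. At the adjusted p of 0.001 that the study's methods use, both averaged counts were 0. At an unadjusted p under 0.05 the counts in aorta were 10 and 1 for diet in WT and KO, 3 and 2 for genotype on SFD and HFD, 2 for their difference, 8 for diet and 3 for genotype averaged. In kidney they were 1 and 8 for diet in WT and KO, 1 for genotype on SFD, 1 for the difference and 4 for diet averaged. With each library left out in turn the count ran from 0 to 12 for diet in WT aortae, from 0 to 11 for diet averaged in aorta, from 0 to 1 in KO kidneys and from 1 to 2 for diet averaged in kidney, and stayed at 0 in the others. The 12 and 11 came without WT-SFD replicate 3, where 12.4% and 12.6% of all genes passed and Ptk7 and Insrr entered the test, and the 1 and 2 in kidney without KO-SFD replicate 3, where 1.75% and 4.11% did. Met averaged over genotypes passed in 9 of 21 alternatives (log2 −2.10 to −0.0036), and the difference was −0.14 with the adipocyte covariate and −0.0036 without the aortae rich in adipocyte transcripts. Axl in kidney was higher on HFD in 21 of 21 and passed in 20 (0.29 to 0.35). The cause of these changes was not tested. Library totals moved the median of all genes by over 0.1 in 5 aortic contrasts, most from −0.03 to 0.27 for KO against WT on SFD. No paired analysis was possible because the replicate numbers follow the order of accessions and no mouse is shared between groups of a tissue. Receptors that failed the filter on low values, with 2 to 80 counts over all libraries, were too low to test at this depth.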
